A study of Mus musculus with 6 samples.

Results

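The genes described here encode the enzymes of glycolysis, the lactate and pyruvate dehydrogenases with their regulators, and the oxygen-sensing pathway of hypoxia-inducible factor (HIF) with some of its target genes. They were chosen by gene symbol: 38 were listed and 35 were measured among the 10128 genes of the authors' deposited table. Eno2, Pfkfb4 and Ankrd37 were not analysed here. Gene expression was compared by RNA sequencing between 3 libraries of Tex19.1-/- mouse embryonic stem (ES) cells and 3 libraries of Tex19.1+/- ES cells. Both genotypes derive from E14Tg2a, a mouse ES line of 129/Ola background, were used at passages 12 to 18, and grew on gelatin in medium with 10% foetal calf serum, leukaemia inhibitory factor and added sodium pyruvate. The cells set against the knockout were heterozygous, not wild type. The labels do not say how many clones each genotype rests on or whether the libraries came from separate cultures, so the p-values measure the spread between these libraries, which may be technical.

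Glycolysis splits glucose into pyruvate in 10 enzymatic steps and is run at a high rate by pluripotent cells in culture. Pyruvate is then either reduced to lactate by lactate dehydrogenase or carried into mitochondria and oxidised to acetyl-CoA by the pyruvate dehydrogenase complex, which the PDK kinases switch off. When oxygen is low, the HIF transcription factors escape the prolyl hydroxylases of the Egln family and the ubiquitin ligase subunit Vhl, and switch on many glycolytic genes together with genes of blood vessel growth and mitochondrial turnover.

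The authors' deposited table gives 1 log2 fold change, 1 mean expression and 1 p-value for each gene, without values of single libraries; the spread between libraries cannot be printed, and their depth is unknown. The header does not name the direction. A positive value is taken here to mean more transcript in Tex19.1-/- cells, since Tex19.1 itself has the lowest log2 fold change of the authors' deposited table, -6.92, and the labels therefore have no independent check. A gene is called higher or lower where the authors' adjusted p was under 0.05, a call made for 51.7% of all genes. All 8 ES cell marker genes checked were measured, with means between 192 and 1566 CPM (read counts scaled to library size) per the authors' deposited table. Of these, Zfp42 at 0.36, Sox2 at 0.23 and Nanog at 0.10 were higher on the log2 scale of the authors' deposited table. Dppa5a at -0.17 and Tdgf1 at -0.16 were lower. Pou5f1 at -0.09, Esrrb at -0.02 and Utf1 at 0.09 did not pass (adjusted p = 0.0534, 0.642 and 0.0795). Apart from that of Zfp42, these sizes lie within the range of the glycolytic enzyme genes, -0.24 to 0.29. The part of these markers in the results was not tested. Of 8 endoderm markers, 6 were measured, at means of 7.38 to 121.8 CPM, and all 6 were lower in Tex19.1-/- cells, with a median log2 fold change of -2.05 per the authors' deposited table. Of 8 fibroblast markers, Fbn1 alone was measured, at a mean of 5.70 CPM and a log2 fold change of -0.76 there, and the rest were not analysed here. In these bulk samples fewer cells of a type and less RNA per cell cannot be told apart.

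Ldhb, the heart-type subunit of lactate dehydrogenase, changed most, while most glycolytic enzyme genes were slightly higher in Tex19.1-/- cells. Of the 35 measured genes, 17 were higher and 6 lower at an adjusted p under 0.05 per the authors' deposited table, and 12 did not pass. Over all genes of the table, 25.2% were called higher and 26.5% lower. The median log2 fold change of the 35 genes was 0.10 against 0.00 over all genes, and the sizes ran from -0.45 for Vegfa to 1.14 for Ldhb. Only Ldhb among the 35 changed by at least 2-fold, a size reached by 1.46% of all genes of the authors' deposited table. Together the 35 genes made up 1.66% of all read counts, averaged over the libraries. With a log2 size of at least 0.2 as a further condition, 13 of the 35 were called, or 10 higher and 3 lower, against 29.2% of all genes.

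**Figure D1:**
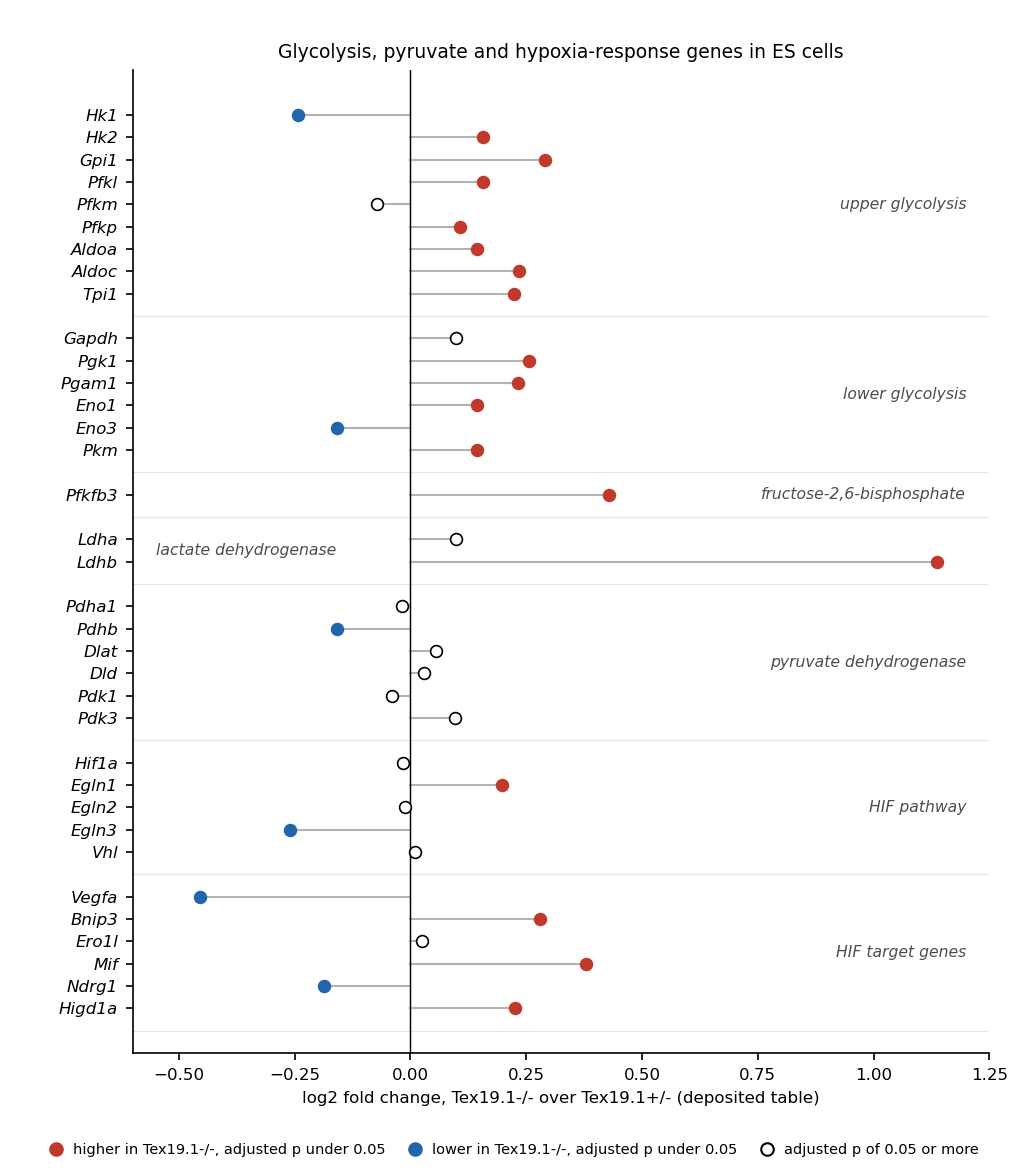
Log2 fold change (Tex19.1-/- over Tex19.1+/-) of each measured gene from the authors' deposited table, grouped by pathway step; filled points passed an adjusted p of 0.05 and open points did not. Ldhb at 1.14 stands apart from its partner Ldha at 0.10, and the enzymes of glycolysis lie between -0.24 and 0.29.

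The 2 lactate dehydrogenase genes encode the subunits of the same tetrameric enzyme, in which the A subunit favours the reduction of pyruvate to lactate and the B subunit the reverse reaction. Ldhb, on the minus strand of chromosome 6 from 142490249 to 142507957 (GRCm38, ENSMUSG00000030246.11), had a log2 fold change of 1.14 per the authors' deposited table (adjusted p = 3.96e-143). Its transcript stood at 220% of the heterozygous level in Tex19.1-/- cells, and its rise was number 22 in size among the 10128 genes. Ldha, on the plus strand of chromosome 7 from 46841475 to 46855627, had a log2 fold change of 0.10 and just missed the threshold in the authors' deposited table (adjusted p = 0.0516). The ratio of Ldhb to Ldha was thus 2.05-fold higher in Tex19.1-/- cells by the authors' deposited values, a difference between 2 genes that was not tested, because the table holds no value per library.

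Ldha nevertheless remained the main form. Averaged over both genotypes, Ldha was present at 519 CPM per kilobase of exon and Ldhb at 118, so Ldhb supplied 18.5% of the lactate dehydrogenase transcripts per length. The length is the union of all annotated exons, 3310 bases for Ldha and 1570 for Ldhb, so such shares depend on the annotation. Without division by length, Ldha stood at 1719 CPM and Ldhb at 185. The genes around Ldhb did not share its rise: the 20 nearest measured genes had a median log2 fold change of -0.06 per the authors' deposited table, with 4 higher and 8 lower. Ldhb still stood at 1.08 once a trend on GC content and transcript length was subtracted. In GENCODE no other gene overlaps Ldhb or Ldha. Pseudogene transcripts with at least 95% identity over at least 300 bases were found for both, 1 for Ldhb and 2 for Ldha, and how the authors' counting treated reads that match several places was not stated in the labels.

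The promoters of this pair are shown because the members differ so widely in their change, and 3 further promoters because Bnip3 and Pgk1, which rose, and Egln3, which fell, are textbook targets of HIF. HIF binds DNA sites with the core ACGTG or GCGTG. Each sequence is the 250 bases upstream of the RefSeq transcription start (GRCm38.p6), 5′ to 3′ on the gene's strand, with every match to either core on either strand in capitals.
Ldhb: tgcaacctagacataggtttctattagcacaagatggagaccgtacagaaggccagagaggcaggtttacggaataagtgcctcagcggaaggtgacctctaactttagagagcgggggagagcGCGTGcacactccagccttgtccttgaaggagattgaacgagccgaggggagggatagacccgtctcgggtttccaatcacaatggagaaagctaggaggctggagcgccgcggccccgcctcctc
Ldha: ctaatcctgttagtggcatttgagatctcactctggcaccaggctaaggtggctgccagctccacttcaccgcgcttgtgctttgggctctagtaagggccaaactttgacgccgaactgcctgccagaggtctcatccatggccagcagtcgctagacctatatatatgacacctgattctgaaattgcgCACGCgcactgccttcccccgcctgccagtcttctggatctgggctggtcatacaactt
Bnip3: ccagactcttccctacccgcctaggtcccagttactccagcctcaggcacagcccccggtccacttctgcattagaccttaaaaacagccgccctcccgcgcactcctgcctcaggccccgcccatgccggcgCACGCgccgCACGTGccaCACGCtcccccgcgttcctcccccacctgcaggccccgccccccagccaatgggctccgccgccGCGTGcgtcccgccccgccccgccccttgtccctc
Pgk1: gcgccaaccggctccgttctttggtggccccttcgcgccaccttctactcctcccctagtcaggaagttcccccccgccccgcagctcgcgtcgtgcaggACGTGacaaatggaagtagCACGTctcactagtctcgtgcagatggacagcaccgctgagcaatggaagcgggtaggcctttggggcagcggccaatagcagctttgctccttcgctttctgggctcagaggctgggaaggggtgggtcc
Egln3: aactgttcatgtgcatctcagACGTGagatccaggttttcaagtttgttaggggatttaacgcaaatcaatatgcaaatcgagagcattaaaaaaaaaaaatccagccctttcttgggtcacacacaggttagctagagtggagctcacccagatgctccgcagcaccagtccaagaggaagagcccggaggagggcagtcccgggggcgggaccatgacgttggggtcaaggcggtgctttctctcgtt

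The windows lie at chr6:142507958-142508207 for Ldhb (minus strand), chr7:46846832-46847081 for Ldha (plus strand), chr7:138909507-138909756 for Bnip3 (minus strand), chrX:106186850-106187099 for Pgk1 (plus strand) and chr12:54203875-54204124 for Egln3 (minus strand). In these windows Ldhb and Ldha each held a single match to GCGTG and none to ACGTG. Ldha has 2 RefSeq starts, and only the one nearest to its principal transcript is shown. Sites outside the windows were not searched for, so the counts do not describe the whole promoter of any of these genes. Pgk1 held 2 matches to ACGTG, on opposite strands, and Egln3 held 1. Bnip3 held 3 matches to GCGTG and 1 palindrome CACGTG, which counts as a match to ACGTG on each strand and is also the site of the basic helix-loop-helix factors of the Myc family.

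RefSeq promoters matched 34 of the 35 measured genes, all but Ndrg1, taking for each gene the start nearest to its principal GENCODE transcript. For some genes that start was still far from the principal one, by 17941 bases for Hk1, 1021 for Vegfa and 694 for Gapdh. Of these 34 windows 26 held at least 1 core, which is 76.5%, against 60.5% of the 7640 genes of the table with a promoter and 38.6% of all 32851 promoter windows. The ACGTG core was found in 14 of the 34, against 23.2% of the genes of the table. Among the genes called higher 13 of 17 windows held a core, among those called lower 4 of 5, and among those not called 9 of 12. HIF targets are in the list by choice, so a share above that of all genes is not a finding of these data. A match is a run of letters and not evidence of binding.

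Within glycolysis itself, most of the measured enzyme genes were higher in Tex19.1-/- cells by small amounts. Of the 15 measured genes of the 10 steps, 11 were higher and 2 lower in the authors' deposited table, with a median log2 fold change of 0.14. Over all genes 25.2% were higher and 26.5% lower. When each step is represented by its most abundant gene per length, 9 of 10 were higher, 0 lower and Gapdh did not pass, with log2 fold changes between 0.10 and 0.29; the choice rests on the mean level alone and was made after the values were seen. Of the 11 enzyme genes with a mean of at least 100 CPM, a level likewise chosen after the values were seen, 10 were higher and 0 lower, against 32.1% higher and 20.3% lower among the 1928 genes of that level in the authors' deposited table, of which 52.4% were called.

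Glucose is first trapped in the cell by hexokinase. Hk2, which can sit on the outer mitochondrial membrane, was higher at 0.16 and Hk1 lower at -0.24 in the authors' deposited table (adjusted p = 6.86e-05 for Hk2 and 1.98e-05 for Hk1). Hk2 accounted for 93.9% of the hexokinase transcript of this pair per length. The isomerase gene Gpi1 had the largest rise of the 10 steps, 0.29, or 122% of the heterozygous level, with an adjusted p of 2.43e-12, by the authors' deposited table.

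Phosphofructokinase, which commits the sugar to glycolysis, is encoded by a liver, a muscle and a platelet gene. The liver-type Pfkl made up 74.0% of the set per length and was higher at 0.16 in the authors' deposited table (adjusted p = 0.000775). The platelet-type Pfkp was higher at 0.11 (adjusted p = 0.00701), whereas the muscle-type Pfkm stood at -0.07 and did not pass (adjusted p = 0.148), both in the authors' deposited table. Both Pfkm and Pfkp share exonic sequence with a measured gene on the opposite strand, Senp1 and Pitrm1. The same holds for Gapdh with Iffo1 and Pdha1 with Map3k15. Others, among them Tpi1 with Spsb2 and Aldoa with Fam57b, share it with opposite-strand genes that are not among the measured genes. On the same strand, exons of Hif1a, Pkm and Pfkm overlap those of Gm49321, Gm49759 and Gm26513, which are not among the measured genes either. How the counting used strand was not stated in the labels. Pfkfb3 makes the bisphosphate that activates phosphofructokinase. It was higher at 0.43, the second largest rise of the 35 genes, or 134% of the heterozygous level (adjusted p = 3.82e-12) per the authors' deposited table. Its mean level was 36.9 CPM.

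Aldolase and triose phosphate isomerase yield the 3-carbon sugars. Aldoa supplied 99.3% of the aldolase transcript of the pair per length and was higher at 0.14 in the authors' deposited table (adjusted p = 0.00134). Aldoc, the brain-type aldolase gene, also rose, by 0.23 in the authors' deposited table, and supplied the other 0.669% (adjusted p = 0.000744). Tpi1 was higher at 0.22 there (adjusted p = 2.59e-07).

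In the energy-yielding lower part of the pathway 4 of 6 measured genes were higher and 1 lower, against 25.2% higher and 26.5% lower among all genes. Gapdh, often used as a reference gene, stood at 0.10 and did not pass in the authors' deposited table (adjusted p = 0.0721). It also had 46 pseudogenes with near-identical sequence, the most of any gene here, which makes its value uncertain. Pgk1, the first enzyme of the pathway to make ATP, rose to 119% of the heterozygous level, a log2 fold change of 0.26 per the authors' deposited table (adjusted p = 1.21e-10). It had 4 near-identical pseudogenes. Pgam1 was higher at 0.23 (adjusted p = 7.1e-08) per the authors' deposited table. Pkm, the pyruvate kinase gene and at a mean of 3340 CPM the most abundant of the 35, was higher at 0.14 (adjusted p = 0.000606) per the authors' deposited table. Values for its separate splice forms were not used here.

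The enolase genes went opposite ways. Eno1, which supplied 98.0% of the transcript of the measured pair per length, was higher at 0.14 (adjusted p = 0.00117), while the muscle-type Eno3 was lower at -0.16 (adjusted p = 0.0231) per the authors' deposited table. Measured genes near Eno3 on chromosome 11 were mostly higher: of the 20 nearest, 13 were higher and 2 lower in the authors' deposited table, with a median of 0.13.

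**Figure D2:**
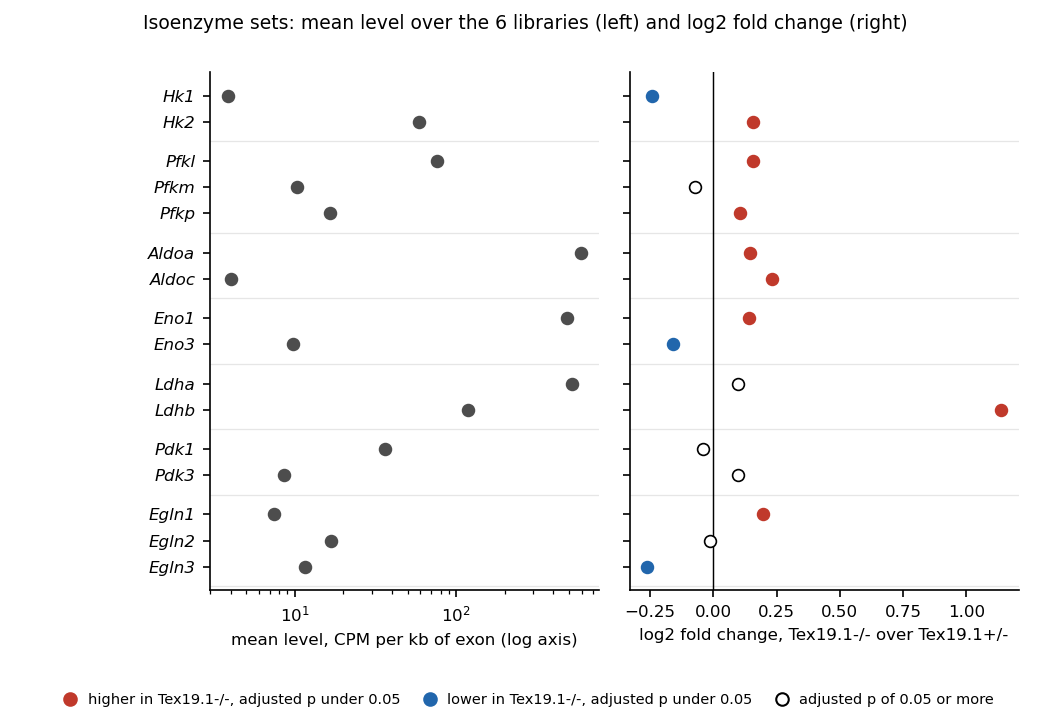
Isoenzyme sets with the mean level over the 6 libraries in CPM per kilobase of exon on a log axis (left) and the log2 fold change of Tex19.1-/- over Tex19.1+/- cells from the authors' deposited table (right); filled points passed an adjusted p of 0.05. Hk1 and Eno3, the less abundant forms, lie at -0.24 and -0.16 opposite Hk2 and Eno1 at 0.16 and 0.14, and Ldhb lies at 1.14. Of the 5 less abundant glycolytic forms 2 were higher, Aldoc at 0.23 and Pfkp at 0.11, 2 lower and 1 did not pass.

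Past pyruvate, few of the pyruvate dehydrogenase genes were called, 16.7% against 51.7% of all genes. Of the subunit genes Pdha1, Pdhb, Dlat and Dld and the kinase genes Pdk1 and Pdk3, 1 of 6 passed, Pdhb, lower at -0.16 (adjusted p = 3.52e-05) per the authors' deposited table. A further subunit gene of the complex, Pdhx, from the surrounding lists, was lower at -0.11 (adjusted p = 0.022) by the authors' deposited table. Pdhb encodes the beta subunit of the first component. Its partner Pdha1, on the X chromosome, stood at -0.02 (adjusted p = 0.721), Dlat, the acetyl transferase, at 0.05 (adjusted p = 0.236), and Dld, the dehydrogenase shared with other complexes, at 0.03 (adjusted p = 0.557) per the authors' deposited table. The kinase genes Pdk1 and Pdk3 stood at -0.04 and 0.10 and did not pass (adjusted p = 0.365 and 0.109) there. Pdk1 was the more abundant kinase of the pair, with 80.9% of the transcript per length.

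Of Hif1a, Vhl and the 3 prolyl hydroxylase genes, 1 was higher, 1 lower and 3 did not pass. Among all genes 25.2% were higher and 26.5% lower. The transcript of Hif1a, the oxygen-regulated subunit that is controlled largely at the protein level, stood at -0.02 (adjusted p = 0.765), and that of Vhl at 0.01 (adjusted p = 0.903) per the authors' deposited table. Egln1 was higher at 0.20 (adjusted p = 0.000238), Egln2 stood at -0.01 (adjusted p = 0.833), and Egln3 was lower at -0.26 (adjusted p = 1e-06) per the authors' deposited table. Egln3 thereby reached 83.5% of the heterozygous level. Per length Egln2 was the most abundant of the 3 at 46.9%, followed by Egln3 at 32.3% and Egln1 at 20.9%.

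HIF target genes did not move as a block. Of 6 measured, 3 were higher, 2 lower and 1 did not pass, against 25.2% higher and 26.5% lower among all genes. Mif, a secreted cytokine, was higher at 0.38 (adjusted p = 1.17e-13), Bnip3, a receptor for the autophagy of mitochondria, at 0.28 (adjusted p = 6.85e-10), and Higd1a, a small protein of the inner mitochondrial membrane, at 0.23 (adjusted p = 1.1e-05) per the authors' deposited table. Mif stood at 0.29 once the trend on GC content and transcript length was subtracted. Mif and Bnip3 each had 3 pseudogenes with near-identical sequence, whose effect on the values was not tested. Vegfa, the vascular growth factor gene, was lower at -0.45, which is 73.0% of the heterozygous level (adjusted p = 2.85e-09) per the authors' deposited table. Ndrg1 was lower too, at -0.19 (adjusted p = 0.000465), while Ero1l, an oxidase of the endoplasmic reticulum, stood at 0.02 (adjusted p = 0.648) per the authors' deposited table. Endoderm markers were lower in the same cells, with a median of -2.05 in the authors' deposited table, and their part in the fall of Vegfa, Ndrg1 and Egln3 was not tested.

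**Figure D3:**
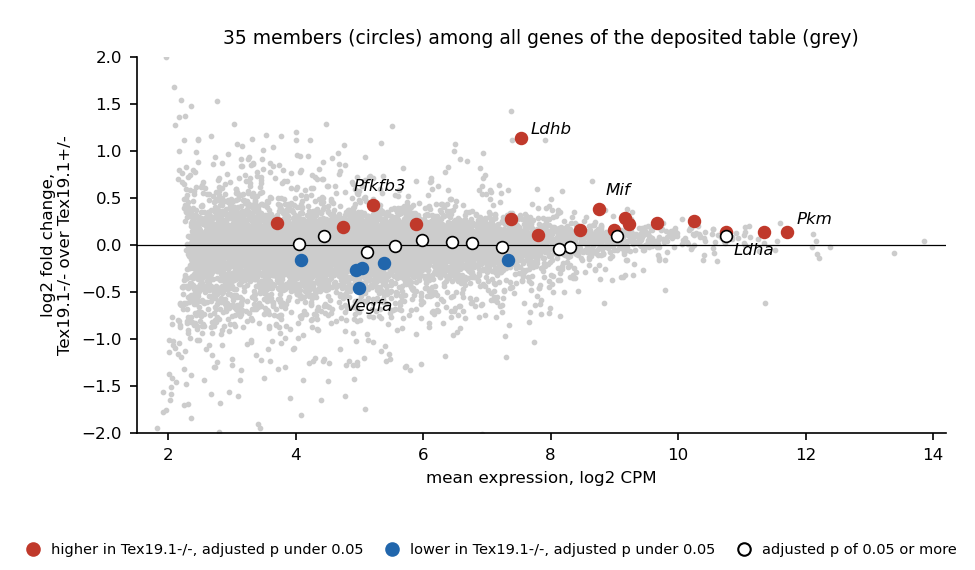
Mean expression (log2 CPM) against log2 fold change for all genes of the authors' deposited table (grey) and the 35 genes described here (circles; filled where the adjusted p was under 0.05); 21 genes lie beyond the vertical axis. Ldhb at 1.14 lies at the upper edge of genes of its level, while Ldha at 0.10 and Pkm at 0.14 lie among the most abundant genes.

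Around this core, 5 lists of further pathway genes held 85 measured genes of 120 listed symbols, some of them older names of the same gene. Of the 85, 18 were higher and 34 lower by the authors' deposited adjusted p-values. Over all genes 25.2% were higher and 26.5% lower. Among genes of glucose and lactate transport, 3 of 8 were higher and 3 lower. The lactate transporter genes Slc16a3 and Slc16a1 were higher at 0.32 and 0.24 in the authors' deposited table (adjusted p = 1.64e-11 and 9.77e-10). The subunits of the mitochondrial pyruvate carrier, Mpc1 and Mpc2, were lower there at -0.43 and -0.32 (adjusted p = 1.4e-15 and 6.08e-05). Mpc1 thus stood at 74.4% of the heterozygous level. The 3 measured glucose transporter genes of the list, named after their values were seen, differed in their calls: Slc2a3 was higher at 0.11 (adjusted p = 0.0145), Slc2a8 lower at -0.16 (adjusted p = 0.00618), and Slc2a1 stood at 0.01 (adjusted p = 0.849) per the authors' deposited table.

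In a broader list of genes around pyruvate dehydrogenase and pyruvate metabolism, 1 of 9 was higher and 3 were lower. The regulator genes of the complex in this list, Pdk4, Pdp1, Pdp2 and Pdpr, did not pass (adjusted p = 0.175, 0.249, 0.517 and 0.122). Nor did the pyruvate carboxylase gene Pcx (adjusted p = 0.814), all by the authors' deposited table and named after their values were seen. The shares of all genes were 25.2% higher and 26.5% lower. Pck2, the mitochondrial enzyme that makes phosphoenolpyruvate, was lower at -0.54, Pdhx lower at -0.11, the malic enzyme gene Me2 higher at 0.13 and its cytosolic relative Me1 lower at -0.11 in the authors' deposited table (adjusted p = 2.43e-06, 0.022, 0.00617 and 0.0491). Of 28 measured genes of the pentose phosphate pathway and other side branches, 6 were higher and 12 lower, against the same shares of all genes. The median of the 28 was -0.03. H6pd, a dehydrogenase of the endoplasmic reticulum, was lower at -0.68, Gfpt1, which opens the hexosamine pathway, at -0.29, and the glycerol phosphate dehydrogenase gene Gpd2 at -0.24, while the phosphoglucomutase gene Pgm2 was higher at 0.28, in the authors' deposited table (adjusted p = 1.23e-15, 1.07e-09, 2.32e-10 and 5.93e-13).

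Of 13 measured regulators of HIF, 7 were lower, 1 was higher and 5 did not pass, against 26.5% lower and 25.2% higher among all genes. Epas1, which encodes the HIF alpha subunit known from blood vessels, had the largest change, -0.93, or 52.6% of the heterozygous level, in the authors' deposited table (adjusted p = 3.05e-78). Per length its mean level was 16.6 CPM per kilobase, against 25.7 for Hif1a. Hif3a was lower at -0.36, the common partner subunit gene Arnt at -0.18 and the ligase scaffold gene Cul2 at -0.14 in the authors' deposited table (adjusted p = 1.15e-07, 2.6e-06 and 0.000397).

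Among 27 further HIF targets, 9 were lower and 7 higher, shares near the 26.5% lower and 25.2% higher of all genes, with a median of -0.02. The 4 genes of this list with the smallest p were the lysyl oxidase gene Loxl2 at -1.03, the prolyl hydroxylase gene P4ha2 at -0.89, the lysyl hydroxylase gene Plod2 at -0.61 and Bnip3l at -0.44, in the authors' deposited table (adjusted p = 6.82e-102, 6.78e-59, 4.71e-59 and 1.4e-29). Bnip3l, a relative of Bnip3 with a like role in mitochondrial turnover, thus differed in sign from Bnip3. Loxl2 and Bnip3l lie on chromosome 14, where the 20 nearest measured genes had medians of -0.70 around Loxl2, with 20 of 20 lower, and -0.18 around Bnip3l, with 13 lower, in the authors' deposited table. With the median of its neighbours subtracted, Loxl2 stood at -0.33. Around P4ha2 and Plod2 the same medians were 0.11 and -0.01. The endoderm markers were lower in the same cells, as given above, and their part in the falls of these targets and of the HIF regulators was not tested.

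**Figure D4:**
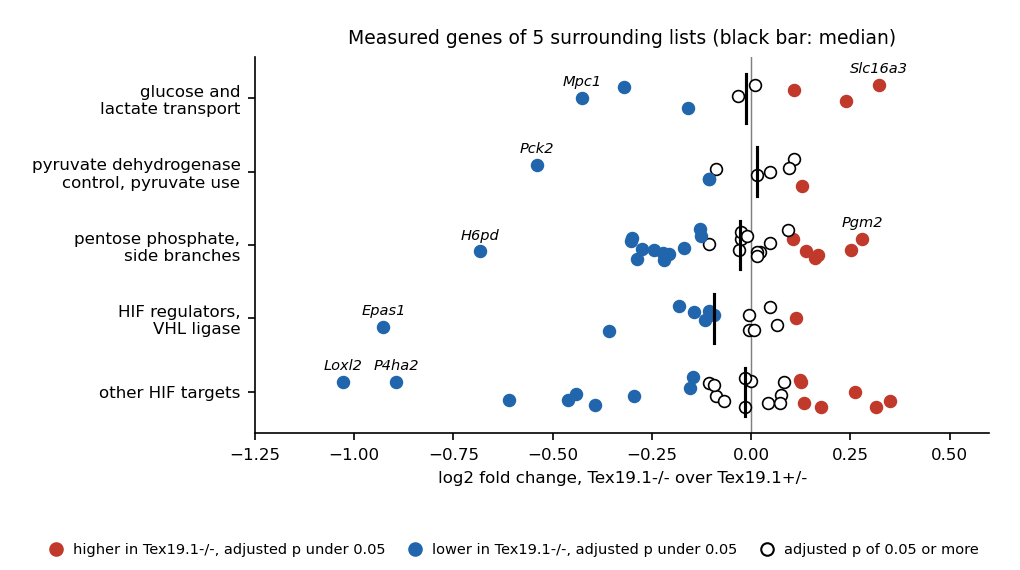
Log2 fold change (Tex19.1-/- over Tex19.1+/-, horizontal axis) of the measured genes of 5 surrounding lists from the authors' deposited table, with the median of each list as a black bar; filled points passed an adjusted p of 0.05. The medians lie between -0.09 and 0.01, and the largest falls are Loxl2 at -1.03 and Epas1 at -0.93.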

How the data were processed

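RNA from TRIzol lysates was made into libraries with the TruSeq Stranded mRNA kit and read in pairs of 150 bases by Illumina sequencing, as the labels' protocols state. Tools listed by the submitters' processing notes are HTSeq 0.11.2, edgeR, TopHat2 2.1.0 and Trim Galore 0.4.1, with the build mm10. For every gene the authors deposited its p-value, adjusted p-value, mean expression as log2 CPM and log2 fold change, per the file headers. The lowest deposited mean was 3.52 CPM, so genes of lower expression are not in the comparison. The deposited adjusted p-values differ from Benjamini-Hochberg values recomputed here by at most 6.7e-05. The edgeR version, filter, form of the test, annotation and strand setting are not stated there. A count model had been planned for the case that counts per library were given; the authors' test took its place, which is the only source of precision.

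Values of CPM are 2 to the power of the deposited log2 mean. Levels between genes are divided by the union of exon lengths in GENCODE M21 (GRCm38, the assembly of mm10). All shares per length therefore depend on that annotation and may differ from true shares of transcripts. By symbol 9587 genes matched, by older symbol 134, and 407 had no position. Pseudogene copies were found with minimap2 2.31 against GENCODE pseudogene transcripts. All 35 measured genes are named, with up to 4 genes of smallest p from each of 5 pathway lists; other genes are named as chosen later. The members and lists were chosen with earlier results of these data known. Alternatives tried were Bonferroni adjustment, an adjusted p under 0.01, a minimum of 16 CPM, a minimum log2 size of 0.2, centring on the median of all genes, a lowess trend on GC content and length (span 0.3; statsmodels 0.14.6) and, for single genes, the median of the 20 nearest genes. The recomputation was tested on simulated data.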

Additional observations from a re-analysis of the deposited data

How the results depend on the processing

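Of the 35 measured genes, 17 were called higher and 6 lower. Bonferroni adjustment left 9 and 3, and a minimum log2 size of 0.2 left 10 and 3. For the 15 glycolytic enzyme genes the calls were 11 higher and 2 lower; Bonferroni left 4 and 1, the minimum size 5 and 1, and an adjusted p under 0.01 left 1 lower. For the transport list Bonferroni left 1 lower. For the pyruvate list an adjusted p under 0.01 left 1 lower, and Bonferroni and the minimum size each left 0 higher and 1 lower. For the side branches Bonferroni and the minimum size each left 2 higher. For HIF regulators Bonferroni left 0 higher and 3 lower, and the minimum size 0 and 2; for the further HIF targets each left 3 higher. These falls follow from the stricter thresholds. Every other count under these alternatives stayed within 1.5 times its value.

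Among the 35 genes, centring, the GC and length trend and subtracting the median of the 20 nearest genes each left the direction of every called gene as it was. In these settings the authors' calls were kept, and only the sign was looked at again. Centring subtracts 0.0031, too little to reverse any called gene here, and the trend reversed 0 of the called genes of the whole table. Neither therefore says much about how firm the calls are. Of genes not called, Vhl changed sign under the trend and the local median, to -0.0019 and -0.02, and Egln2 under the local median, to 0.04. No paired analysis was possible because the deposited table holds no value per library. For the same reason leaving out single replicates and the DESeq2 test were not run.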

Other observations

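Downstream of pyruvate, 2 lists were added after the values above were seen, and are given as values only. All 20 listed genes of the tricarboxylic acid cycle and its links were measured, and 5 were higher, 4 lower and 11 not past the threshold. Over all genes 25.2% were higher and 26.5% lower. The median log2 fold change of the 20 was 0.02 per the authors' deposited table. The largest change was that of Sucla2, a subunit of succinyl-CoA synthetase, at -0.70 (adjusted p = 2.77e-60) per the authors' deposited table. Sucla2 lies on chromosome 14, where the 20 nearest measured genes had a median of -0.68 and 18 were lower. Fumarase, Fh1, was higher at 0.19 and citrate synthase, Cs, at 0.18 in the authors' deposited table (adjusted p = 1.86e-06 and 1.64e-06).

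The malate-aspartate shuttle carries reducing equivalents from cytosolic NADH, the same pool that lactate dehydrogenase draws on, into mitochondria. Of its 6 listed genes 5 were higher and 0 lower in the authors' deposited table, against 25.2% called higher over all genes. The rises were small: Slc25a13 at 0.19, Got2 at 0.13, Mdh1 at 0.12, Slc25a11 at 0.10 and Got1 at 0.09 in the authors' deposited table. Slc25a11 lies on chromosome 11, where the 20 nearest measured genes had a median of 0.13, with 12 higher and 3 lower. With that median subtracted Slc25a11 stood at -0.03, whereas Slc25a13, Got2, Mdh1 and Got1 stayed positive by the same measure. Slc25a12 stood at -0.04 (adjusted p = 0.467) there.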
